A study of Mus musculus with 272 samples.

Results

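The galectin, annexin and S100 genes described here are 9 of the 15854 gene symbols in a sequencing study of mouse oocytes and preimplantation embryos: Lgals1, Lgals3, Anxa2, Anxa3, Anxa5, Anxa11, S100a10, S100a11 and S100a6. They were chosen by their measured levels, as genes of the blastocyst surface that join Lgals1 in its rise, so their levels from the 2-cell stage on are a description and carry no test. The study covered 8 stages: the germinal vesicle (GV) oocyte, the metaphase II (MII) oocyte, the zygote, the 2-cell, 4-cell and 8-cell embryo, the morula and the blastocyst. At each stage RNA was sequenced from 4 pools of 20 oocytes or embryos, the transcriptomes, and from 3 sucrose gradients lettered A to C, each loaded with the lysate of about 100 oocytes or embryos and collected as 10 fractions. Cycloheximide, which holds ribosomes on their messages, was in every lysate and gradient, and all groups were otherwise untreated as far as the labels say; strain, age and hormone treatment are not given in the sources used here.

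Galectins are lectins that bind galactose-containing sugars on glycoproteins and are secreted without a signal peptide. Annexins bind acidic phospholipids at membranes when calcium is present, and S100 proteins are small dimers, most but not all of them calcium-binding. Several of them work in pairs: the S100A10 dimer binds the N-terminal tail of annexin A2, and S100A11 and S100A6 bind annexins too. The blastocyst consists of an outer epithelium, the trophectoderm, around a cavity and an inner cell mass, and galectin 1 is known from the trophectoderm and the uterus at implantation. In a sucrose gradient a message sediments with the number of ribosomes it carries, so a short coding sequence can hold fewer of them. The mean of fractions 6 to 10 is called heavy here and that of fractions 1 to 5 light; the labels number the fractions without naming the end of the gradient, and fraction 1 was taken as the top.

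The S100 coding sequences are the shortest of the 9 and are shown because the gradients separate messages by the ribosomes they can hold. Start and stop codons are in capitals; the sequences are those of GENCODE release M21 transcripts on GRCm38, all 3 on chromosome 3.
S100a6: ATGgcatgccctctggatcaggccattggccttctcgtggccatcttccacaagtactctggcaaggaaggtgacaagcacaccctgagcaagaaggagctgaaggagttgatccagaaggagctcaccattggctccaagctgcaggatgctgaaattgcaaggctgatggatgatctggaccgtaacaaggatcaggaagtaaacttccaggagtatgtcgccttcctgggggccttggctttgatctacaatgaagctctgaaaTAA
S100a10: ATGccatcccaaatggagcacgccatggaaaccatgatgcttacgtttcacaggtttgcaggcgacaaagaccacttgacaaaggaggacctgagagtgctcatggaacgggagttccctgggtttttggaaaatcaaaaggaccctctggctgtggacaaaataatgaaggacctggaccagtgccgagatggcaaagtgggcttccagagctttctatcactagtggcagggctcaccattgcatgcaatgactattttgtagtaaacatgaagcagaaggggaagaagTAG
S100a11: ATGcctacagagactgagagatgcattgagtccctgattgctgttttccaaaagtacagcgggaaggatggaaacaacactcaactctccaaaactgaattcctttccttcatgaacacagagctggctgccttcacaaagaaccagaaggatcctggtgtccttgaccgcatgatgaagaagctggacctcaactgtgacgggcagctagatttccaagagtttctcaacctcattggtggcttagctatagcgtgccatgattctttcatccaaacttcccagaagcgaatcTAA
Without the stop, S100a6 has 89 codons, S100a10 97 and S100a11 98. Lgals1 has 135 codons on chromosome 15 and Lgals3 264 on chromosome 14. The annexins are longer: Anxa5 has 319 codons on chromosome 3, Anxa3 323 on chromosome 5, Anxa2 339 on chromosome 9 and Anxa11 503 on chromosome 14. S100a10, S100a11 and S100a6 have 3 exons each, and the annexins have 13 to 15.

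RefSeq's promoter table (GRCm38.p6) held 6 of the 9 genes, and no promoter of Lgals1, Anxa3 or S100a10 is shown. The 250 bases before the start of Anxa2 (chr9:69453433-69453682, + strand) and of S100a11 (chr3:93520246-93520495, + strand) are shown because both hold the AP-1 letters TGANTCA. Capitals mark matches to these letters, to GGGCGG on either strand (bound by Sp1) and to TATAAA (the TATA box).
Anxa2: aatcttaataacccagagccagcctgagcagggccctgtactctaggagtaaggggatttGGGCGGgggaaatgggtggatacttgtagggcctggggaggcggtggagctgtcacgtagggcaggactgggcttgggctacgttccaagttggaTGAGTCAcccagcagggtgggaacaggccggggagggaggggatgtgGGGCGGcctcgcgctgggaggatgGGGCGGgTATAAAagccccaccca
S100a11: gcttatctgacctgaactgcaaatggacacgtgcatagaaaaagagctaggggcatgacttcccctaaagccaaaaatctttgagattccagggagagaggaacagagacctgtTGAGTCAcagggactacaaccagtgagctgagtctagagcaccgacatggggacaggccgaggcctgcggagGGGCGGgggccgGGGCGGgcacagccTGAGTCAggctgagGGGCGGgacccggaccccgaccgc
TGANTCA reads nearly the same on both strands and was counted once; it was found in 2 of the 6 promoters, and in 6.75% of all 32851 promoters of this length. GGGCGG, searched on both strands, was in 4 of the 6 and in 32.7% of all. TATAAA was in 1 of the 6, that of Anxa2, against 12.4% of all. GGAATG, the letters bound by TEAD factors, was in 0 of the 6 against 12.6% of all, which says only that these letters are not in these windows. No motif searched overlaps another.

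The transcriptome levels, in CPM (reads scaled to a common library total), followed 3 patterns over the stages rather than 1. Lgals1 and Lgals3 had a first maximum in the 2-cell embryo, lower levels to the morula and a second maximum in the blastocyst. Anxa3, Anxa11, S100a10, S100a11 and S100a6 were at 4.39 CPM or less in oocytes and zygotes and at 4.93 CPM or more in each 4-cell pool. Anxa2 and Anxa5 were abundant in the GV oocyte, and the mean of Anxa5 was lower in the blastocyst than at any stage up to the 2-cell embryo.

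**Figure D1:**
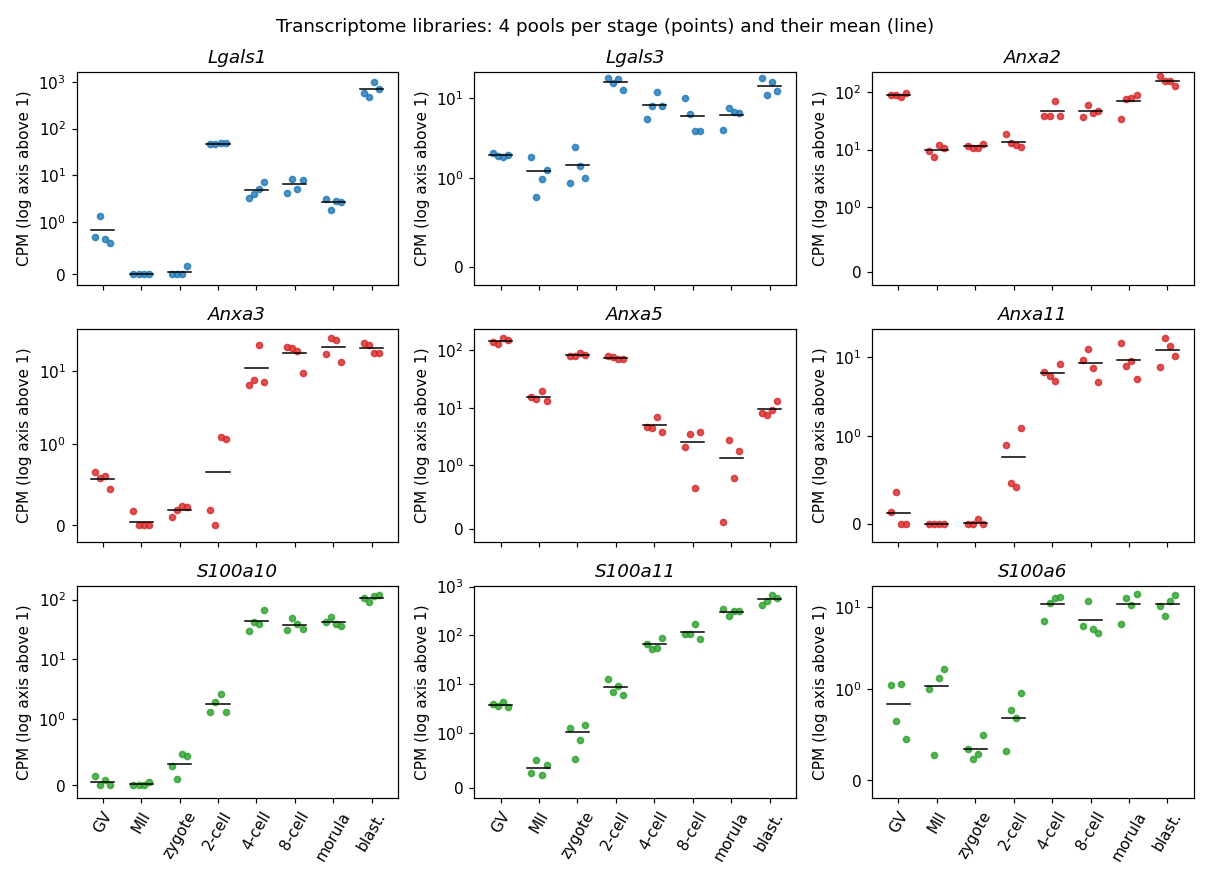
Transcriptome level of each gene in CPM (vertical, logarithmic above 1 CPM) at the 8 stages (horizontal); points are the 4 pools, lines their mean, colours the galectins (blue), annexins (red) and S100 genes (green). Lgals1 lies at 45.7 to 49.5 CPM in 2-cell embryos, at 1.78 to 3.19 in morulae and at 478 CPM or more in blastocysts, while Anxa5 is highest in GV oocytes.

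Lgals1, the galactose-binding galectin 1, was at 0 in all 4 MII pools and in 3 of the 4 zygote pools. It stood at 45.7, 46.6, 49.1 and 49.5 CPM in the 2-cell pools and at 3.35 to 7.09 CPM in the 4-cell pools. In the morula it was 1.78, 2.76, 2.89 and 3.19 CPM, and in the blastocyst 478, 587, 692 and 1014 CPM. The blastocyst mean was 261-fold the morula mean, and the groups did not overlap. In such pools of whole embryos, more cells of a type and more RNA per cell cannot be told apart. Lgals3, the galectin with a long N-terminal tail that lets it form oligomers, was 12.4 to 17.7 CPM in 2-cell pools, 3.90 to 7.41 in morulae and 10.9 to 17.7 in blastocysts, a morula-to-blastocyst ratio of 2.30. Its 2-cell and blastocyst ranges overlapped.

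Anxa2, the annexin that joins S100A10 under the plasma membrane, was 79.8, 88.4, 88.8 and 93.6 CPM in GV oocytes and 7.53 to 12.1 CPM in MII oocytes. It stayed between 10.5 and 18.3 CPM to the 2-cell stage, was 33.9 to 88.0 CPM in morulae and reached 126, 151, 151 and 187 CPM in blastocysts. Anxa5, the phosphatidylserine-binding annexin, was 128 to 164 CPM in GV oocytes, 12.8 to 19.7 in MII oocytes, 79.4 to 90.0 in zygotes and 70.9 to 80.4 in 2-cell embryos. It then lay at 3.70 to 6.81 CPM in 4-cell embryos, 0.101 to 2.73 in morulae and 7.34 to 12.9 in blastocysts. Its highest pools were thus those of the GV oocyte, and its lowest mean was that of the morula.

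Anxa3 overlapped between morula and blastocyst, at 13.2 to 28.5 and 17.9 to 24.6 CPM, and its level was first above 2 CPM in the 4-cell embryo (6.40 to 23.1 CPM). Anxa11, an annexin with a long N-terminal tail, was 4.93 to 8.20 CPM in 4-cell embryos, 5.21 to 14.7 in morulae and 7.50 to 17.2 in blastocysts, again with overlap.

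S100a10, which encodes the partner of annexin A2, was at or under 0.131 CPM in oocytes and 1.28 to 2.62 CPM in 2-cell embryos. It stood at 29.4, 38.3, 42.6 and 66.3 CPM in 4-cell embryos, 36.4 to 51.5 in morulae and 90.7 to 118 CPM in blastocysts. S100a11 had a higher mean at each stage from the 2-cell embryo on: 5.96 to 13.1 CPM in 2-cell, 51.9 to 87.1 in 4-cell, 84.9 to 170 in 8-cell, 256 to 340 in morula and 411 to 682 CPM in blastocyst pools. Of these neighbouring stages, only the 4-cell and 8-cell pools of S100a11 overlapped. S100a6 was under 2 CPM to the 2-cell stage, 6.81 to 13.3 CPM in 4-cell embryos, 6.13 to 14.4 in morulae and 7.73 to 13.9 in blastocysts, with no separation of the last 2 stages.

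From morula to blastocyst the pools of 6 of the 9 genes were separate, all higher in the blastocyst. Over all genes 18.8% were called higher and 7.97% lower by the limma rule given below. That is a different measure from separate pools, and the share of all genes with separate pools is not given. Since the 9 genes were chosen on this comparison, nothing is read from the count. The ratios of blastocyst to morula were 6.96 for Anxa5, 2.57 for S100a10, 2.25 for Anxa2 and 1.79 for S100a11, against 1.33 for Anxa11, 0.997 for S100a6 and 0.970 for Anxa3. Per kilobase of exon, which allows levels of different genes to be set side by side, S100a11 was the most abundant in blastocysts at 1074 ± 223 CPM per kb (SD, n = 4). Lgals1 followed at 767 ± 256, within the summed SDs of S100a11. S100a10 was at 89.2 ± 10.3 and Anxa2 at 41.3 ± 6.73 CPM per kb, and the other 5 lay between 2.93 and 8.01. In GV oocytes Anxa5 led at 81.6 ± 8.70 CPM per kb and Anxa2 was at 23.5 ± 1.54 (SD, n = 4).

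Likeness to Lgals1 was measured as Pearson's r of log2(CPM + 1) over the 32 transcriptome libraries, as a description, since pools of 1 stage share that stage. Among 10432 genes the nearest were BC053393 (r = 0.945), Dkkl1 (0.921), Eomes, which encodes a trophectoderm transcription factor (0.918), Dusp4, a phosphatase of MAP kinases (0.914), and the sialidase gene Neu1 (0.911). Eomes was 1.39 ± 0.703 CPM in morulae and 22.6 ± 4.40 in blastocysts (SD, n = 4). Of the other 8 genes of the group, Lgals3 came nearest, at rank 82. S100a11 was at rank 975, S100a10 at 1297, Anxa11 at 1763, Anxa2 at 2741, Anxa3 at 2779, S100a6 at 3334 and Anxa5 at 6778.

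The steps from GV to MII oocyte and from MII oocyte to zygote precede the levels on which the genes were chosen, and were tested with limma on log2(CPM + 1), calling a gene at a Benjamini-Hochberg adjusted p under 0.05 and a difference of at least 1. From GV to MII oocytes 3 of the 9 fell, against 25.3% of all genes called lower: Anxa5 by 3.15 ± 0.27 (SE; adjusted p = 2.7e-12), Anxa2 by 3.04 ± 0.22 (adjusted p = 3.3e-14) and S100a11 by 1.85 ± 0.21 (adjusted p = 2.7e-09). From MII oocyte to zygote, 1 of the 9 rose, against 5.79% of all genes called higher. It was Anxa5, by 2.36 ± 0.27 on the log2 scale (adjusted p = 2.2e-08), and its 4 zygote pools were all above its 4 MII pools. The libraries were made from polyadenylated RNA, so a change in the poly(A) tail and a change in the amount of message cannot be told apart.

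The step from zygote to 2-cell embryo ends in levels on which the genes were chosen, and is given as values only. S100a10 was 0.0948 to 0.467 CPM in zygotes and 1.28 to 2.62 CPM in 2-cell embryos, with no overlap.

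What else the libraries held was described by marker lists. The summed level of 7 oocyte genes was 19125 to 21800 CPM in GV and 7.72 to 12.9 CPM in blastocyst transcriptomes. For the 8 trophectoderm markers analysed it was 2299 to 2957 CPM in blastocysts, where 8 of 8 were at 1 CPM or more, and 303 to 359 CPM in morulae. Of 10 cumulus and granulosa markers only Fshr and Cyp19a1 were analysed; they summed to 37.5 to 44.2 CPM in GV and 59.7 to 68.9 CPM in MII pools, nearly all of it Cyp19a1. Fshr was 2.45 ± 1.02 CPM in GV and 0.201 ± 0.175 in MII pools, and Cyp19a1 was 38.0 ± 3.22 and 62.7 ± 4.26 (SD, n = 4). The part of such cells in the GV and MII levels of Anxa2, Anxa5 and S100a11 was not tested. Transcriptomes held 11.2 to 24.3 M reads and fraction libraries 0.0102 to 43.2 M (median 18.6); of 15 fraction libraries with under 1 M reads, 14 were fraction 1.

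In the gradients, many values of the 9 genes were 0 in the early stages. Of 270 values per stage (9 genes, 30 libraries), 29.3% were 0 in GV oocytes, 48.1% in MII oocytes, 57.4% in zygotes, 74.4% in 2-cell, 56.3% in 4-cell and 44.4% in 8-cell embryos, against 21.1% in morulae and 4.81% in blastocysts. The morula and the blastocyst are therefore described in detail and the earlier stages by their calls. CPM are shares of each fraction library. The profiles, heavy and light means and mean fractions below thus compare shares, and not the amount of a message in each fraction.

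**Figure D2:**
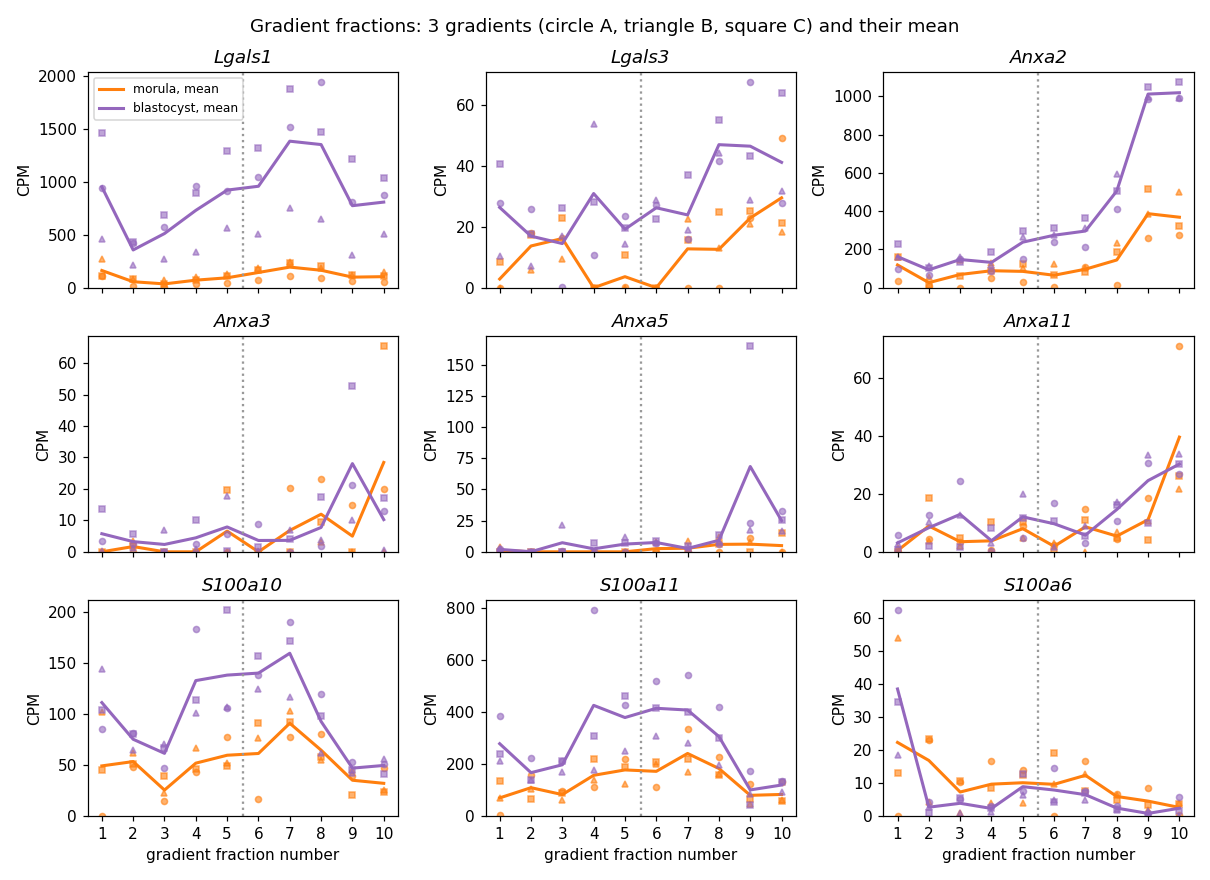
CPM (vertical) in each of the 10 gradient fractions (horizontal) of morulae (orange) and blastocysts (purple); marks are the 3 gradients, lines their mean, and the dotted line separates light from heavy fractions. Anxa2 climbs to about 1012 and 1019 CPM in blastocyst fractions 9 and 10, where S100a10 and S100a11 are lower than in fraction 7.

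The 4 annexins had their highest blastocyst mean in fraction 9 or 10, and the S100 genes did not share 1 profile. Anxa2 was 64.8, 112 and 104 CPM in fraction 2 of gradients A, B and C, and 990, 992 and 1074 CPM in fraction 10. In morulae the same gene went from 11.3, 56.8 and 11.7 CPM in fraction 2 to 278, 503 and 325 CPM in fraction 10. Every gradient of both stages was thus higher at the bottom. Anxa11 had its highest mean in fraction 10 at both stages, 39.7 ± 27.3 CPM in morulae and 30.4 ± 3.53 in blastocysts (SD, n = 3). Anxa5 and Anxa3 had their blastocyst maximum in fraction 9, but gradient C held most of it: Anxa5 was 23.0, 17.3 and 165 CPM there, and Anxa3 was 21.1, 10.2 and 52.8 CPM.

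S100a10 and S100a11 had broad maxima in the middle of the gradient and were lower at its bottom. S100a10 in blastocysts was 190, 116 and 172 CPM in fraction 7 and 53.1, 42.2 and 45.2 CPM in fraction 9. S100a11 was 542, 282 and 400 CPM in fraction 7 and 173, 85.2 and 42.0 CPM in fraction 9. All 3 gradients showed both drops. S100a6 had its highest blastocyst level in fraction 1, at 62.5, 18.6 and 34.6 CPM, and was 0.860, 1.39 and 0 CPM in fraction 9.

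The galectins lay between these patterns. Lgals1 in blastocysts was 1524, 750 and 1883 CPM in fraction 7 and 426, 214 and 432 CPM in fraction 2, with 776 CPM on average in fraction 9. Lgals3 was 41.7, 44.2 and 55.3 CPM in blastocyst fraction 8, its highest mean.

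The heavy and light means put a number on these profiles. Anxa2 in blastocysts averaged 568, 634 and 661 CPM in the heavy fractions of gradients A, B and C and 110, 164 and 190 CPM in the light ones, a log2 difference of 2.03. In morulae it was 133, 270 and 235 CPM against 25.4, 120 and 88.3 CPM, a difference of 1.64. Heavy exceeded light in all 3 gradients of both stages. Anxa5 in blastocysts was 13.8, 10.6 and 43.3 CPM heavy against 0.576, 7.31 and 2.85 CPM light, a log2 difference of 2.41, and 2.09 in morulae. Anxa11 differed by 1.04 in blastocysts and 1.30 in morulae, heavier in 3 of 3 gradients of each. Anxa3 in blastocysts was 9.01, 4.33 and 18.6 CPM heavy and 2.85, 5.41 and 5.95 CPM light, so gradient B went the other way.

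Lgals1 was 1241, 544 and 1385 CPM heavy and 764, 370 and 953 CPM light in blastocysts, a difference of 0.60 that all 3 gradients shared. Lgals3 differed by 0.75, also in 3 of 3. S100a10 and S100a11 were even between the sides in blastocysts, at -0.09 and -0.08 on the log2 scale. S100a6 was 6.32, 2.57 and 2.96 CPM heavy against 16.6, 5.96 and 11.2 CPM light, a difference of -1.28 in blastocysts and -0.84 in morulae, lighter in 3 of 3 gradients of both.

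**Figure D3:**
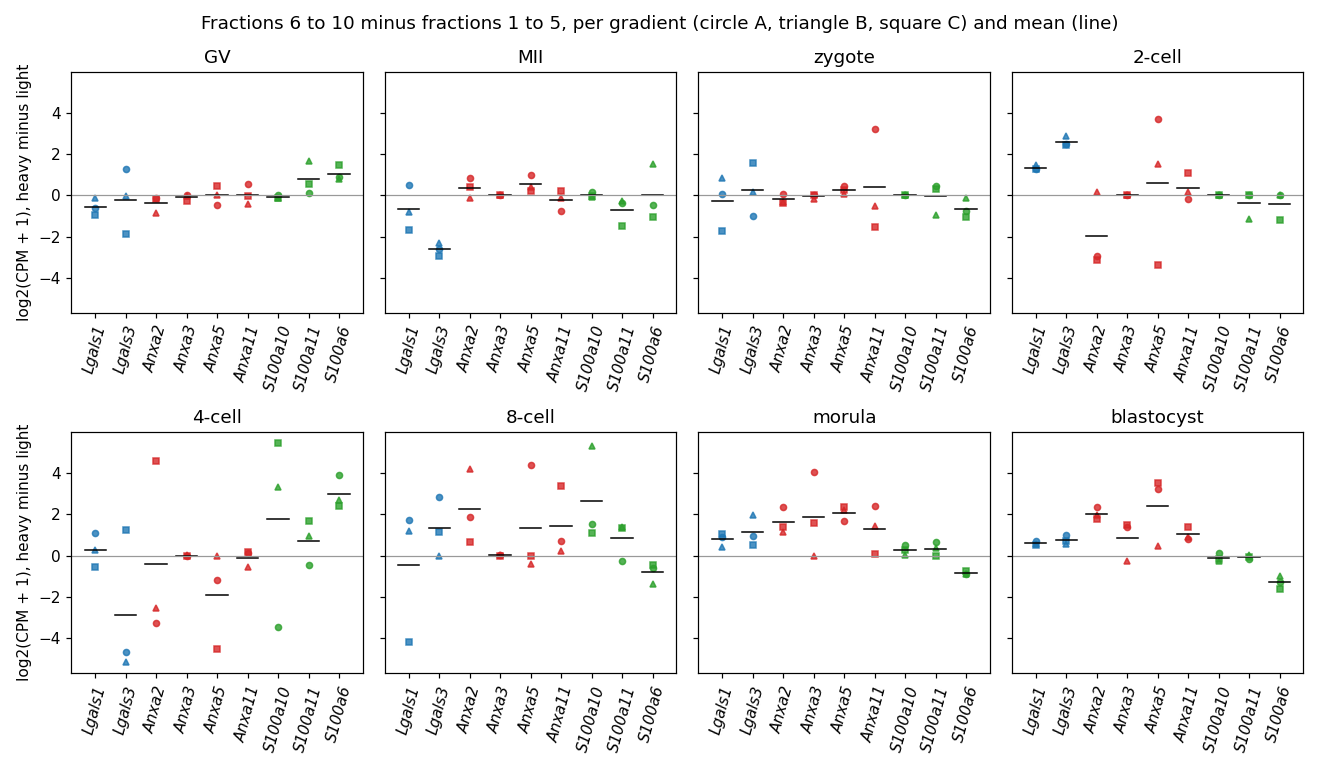
Difference of heavy and light fractions on the log2(CPM + 1) scale (vertical) for each gene (horizontal) at the 8 stages; marks are the 3 gradients, lines their mean. In blastocysts Anxa2 lies between 1.79 and 2.36 and S100a6 between -1.62 and -0.96, while single gradients at the 4-cell stage run from -5.15 to 5.44.

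The test of these differences was limma over all 8 stages with a shared spread, and it called 4 pairs of a gene and a stage of the 72 tested. The median difference of the 9 genes was 0.75 in blastocysts and 1.15 in morulae, against -0.02 and 0.00 over all genes. The genes tested had to reach 1 CPM in only 3 fraction means of any stage. The 9 were chosen by their level, so these medians are not of genes matched in level and nothing is read from them. In blastocysts 0 of the 9 were called, against 2.74% of all 15172 genes in either direction; 2 had an unadjusted p under 0.05, and edgeR on recovered reads called 0. For Anxa2 the adjusted p was 0.54. That fit shares 1 spread over all 8 stages. On simulated counts it recovered 2% of 4-fold differences in blastocysts, against 59.5% for a fit of the blastocyst gradients alone. The simulated fits tested 14958 and 10775 genes on reads summed over fractions. The fits of the data tested 15172 genes on means of CPM, so these rates do not decide between the 2 fits. In the blastocyst fit alone, set as an alternative, Anxa2 was called (limma, adjusted p = 0.0086, SE 0.22), the only one of the 9. There 10.9% of all genes were called in either direction. With the 2-cell, 4-cell and 8-cell gradients left out, an alternative chosen after seeing the data that kept the GV, MII and zygote gradients, Anxa2 (adjusted p = 0.00054) and Anxa5 (adjusted p = 0.0036) were called heavy in blastocysts, where 11.2% of all genes were called in either direction. The same was true of both in morulae (adjusted p = 0.0022 and 0.0068).

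In morulae Anxa3 was called heavy in the fit over all stages, by 1.88 (SE 0.51, limma, adjusted p = 0.016). There 1.64% of all genes were called heavy and 4.17% light, 5.81% in either direction. This SE comes from the spread shared by all stages. Anxa3 was at 0 in all 30 fraction libraries of MII oocytes and of 2-cell embryos, and in 29 of 30 of zygotes. The heavy means of Anxa3 in morulae were 15.7, 0.653 and 15.0 CPM and its light means 0, 0.659 and 4.30 CPM, so gradient B showed no difference. Anxa3 was also called with the 2-cell to 8-cell gradients left out (limma, adjusted p = 0.027), where 19.6% of all genes were in either direction. That fit kept the MII and zygote gradients. With the morula gradients alone Anxa3 was not called (SE 1.21, limma, adjusted p = 0.44), where 5.75% of all genes were in either direction. Nor was it called without gradient A, where its difference was 0.79 (limma, adjusted p = 0.82), or without gradient C (adjusted p = 0.077). In all, 5 of 13 alternatives ended the call, edgeR among them (adjusted p = 0.88).

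In 8-cell embryos 2.43% of all genes were called heavy and 6.62% light, 9.05% in either direction. Of the 9, 1 was called: S100a10, heavy by 2.64 (SE 0.86, limma, adjusted p = 0.043). Its heavy means were 42.9, 39.6 and 48.3 CPM and its light means 14.2, 0.0216 and 22.2 CPM. With the gradient as a block the adjusted p was 0.10, without gradient B the difference was 1.31 (adjusted p = 0.68), and without gradient C the adjusted p was 0.057. In all, 7 of 12 alternatives ended the call, edgeR among them (adjusted p = 0.84).

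In 4-cell embryos 3.4% of all genes were called heavy and 12.9% light, 16.3% in either direction. S100a6 was called heavy by 2.99 (SE 0.56, limma, adjusted p = 0.00023) and Lgals3 light, by -2.86 (SE 0.96, adjusted p = 0.033). S100a6 was at 72.7 CPM in fraction 8 of gradient A, 27.1 CPM in fraction 7 of gradient B and 22.3 CPM in fraction 8 of gradient C, and at 0.241 CPM or less in the other 27 fraction libraries. Lgals3 was at 0 in 22 of 30 libraries, and gradient C was heavy, at 25.8 against 10.5 CPM, while A and B were light. Without gradient A its difference was -1.97 (adjusted p = 0.38) and without gradient B -1.72 (adjusted p = 0.35). Neither call remained in a fit of the 4-cell gradients alone (limma, adjusted p = 0.35 for S100a6 and 0.62 for Lgals3), nor with the mean of log2 values in place of the mean of CPM (adjusted p = 0.12 and 0.90).

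In the other stages the fit over all stages called 0 of the 9. Lgals1 in 2-cell embryos, its first maximum, was 141, 75.1 and 112 CPM heavy and 57.2, 26.2 and 46.0 CPM light, higher in the heavy fractions of all 3 gradients by 1.35 on the log2 scale (limma, adjusted p = 0.37). The share of all genes called was 0.0725% in GV oocytes, 3.23% in MII oocytes, 3.01% in zygotes and 18.2% in 2-cell embryos. One gene, Lgals3, had an unadjusted limma p under 0.05 in MII oocytes and in 2-cell embryos, and none had in GV oocytes or zygotes. In MII oocytes Lgals3 was 0, 1.69 and 0.0282 CPM heavy and 4.94, 12.3 and 6.93 CPM light, a difference of -2.61 (limma, adjusted p = 0.15); it was called light in the fit of the MII gradients alone (adjusted p = 0.044), where 9.69% of all genes were called in either direction, and with the 2-cell to 8-cell gradients left out (adjusted p = 0.0029), where 14.5% were. In 2-cell embryos it was 26.2, 6.35 and 27.2 CPM heavy and 3.80, 0 and 4.30 CPM light, a difference of 2.60 (limma, adjusted p = 0.053). That difference was called with the gradient as a block (limma, adjusted p = 0.040), where 19.9% of all genes were called in either direction. edgeR called 0 of the 9 in GV oocytes, MII oocytes and zygotes. In 2-cell embryos it called 3 (S100a6, S100a11 and Anxa2), all light, against 10.6% of all genes that edgeR called light there. For edgeR, 1 library of a heavy fraction was left out of the sums. In 2-cell embryos S100a6 was above 0 in only 1 fraction library, of gradient C, and S100a11 in only 1, of gradient B. The edgeR calls of S100a6 and S100a11 thus rest on 1 library each. Anxa2 was 0.125, 0.125 and 0.0109 CPM heavy and 7.55, 0 and 7.94 CPM light there, so gradient B went the other way.

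A change of the heavy-light difference from one stage to the next was called for 2 of the 9 from 2-cell to 4-cell embryos, against 11.7% of all genes, and for 1 from 4-cell to 8-cell embryos, against 2.47%. All 3 rest on the 4-cell values above. S100a6 changed by 3.38 ± 0.80 toward heavy (SE; limma, adjusted p = 0.0040) and then by -3.79 ± 0.80 (adjusted p = 0.0068), and Lgals3 by -5.46 ± 1.35 (adjusted p = 0.0059). Without gradient A the S100a6 return was not called (adjusted p = 0.063), nor without gradient B (0.053). Its first change was not called without gradient C (limma, adjusted p = 0.056). For Lgals3 the call was lost without gradient A (adjusted p = 0.13) or B (0.10). Of 12 alternatives each, 3 ended the first call of S100a6, 7 the second and 5 that of Lgals3.

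Position along the gradient followed coding length within these 9 genes. The S100 genes were the shortest and the annexins the longest, so length and gene family cannot be told apart. The CPM-weighted mean fraction in blastocysts was 3.35 ± 0.21 for S100a6, 5.23 ± 0.24 for S100a10, 5.26 ± 0.05 for S100a11, 5.95 ± 0.09 for Lgals1, 6.34 ± 0.10 for Lgals3, 6.88 ± 0.76 for Anxa3, 7.03 ± 0.52 for Anxa11, 7.64 ± 0.23 for Anxa2 and 7.97 ± 1.27 for Anxa5 (SD, n = 3 gradients each). S100a6 and Lgals1 stood apart from their neighbours in this order by more than the summed SDs, while S100a10 and S100a11, Lgals3 and Anxa3, and the neighbouring annexins did not. Spearman's rho with the number of codons was 0.88 in blastocysts and 0.90 in morulae over 9 genes that share their gradients. Over all genes at 10 CPM or more rho was 0.016 (5917 genes) and -0.017 (6017 genes). The relation over all genes was not one-directional. The median position in blastocysts was 4.94 for genes under 150 codons, 5.72 for 150 to 300 and 6.03 for 300 to 450. It was 5.83 for 450 to 700 codons and 4.71 for over 1000. Up to 450 codons, genes in general thus also lay further down with length.

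**Figure D4:**
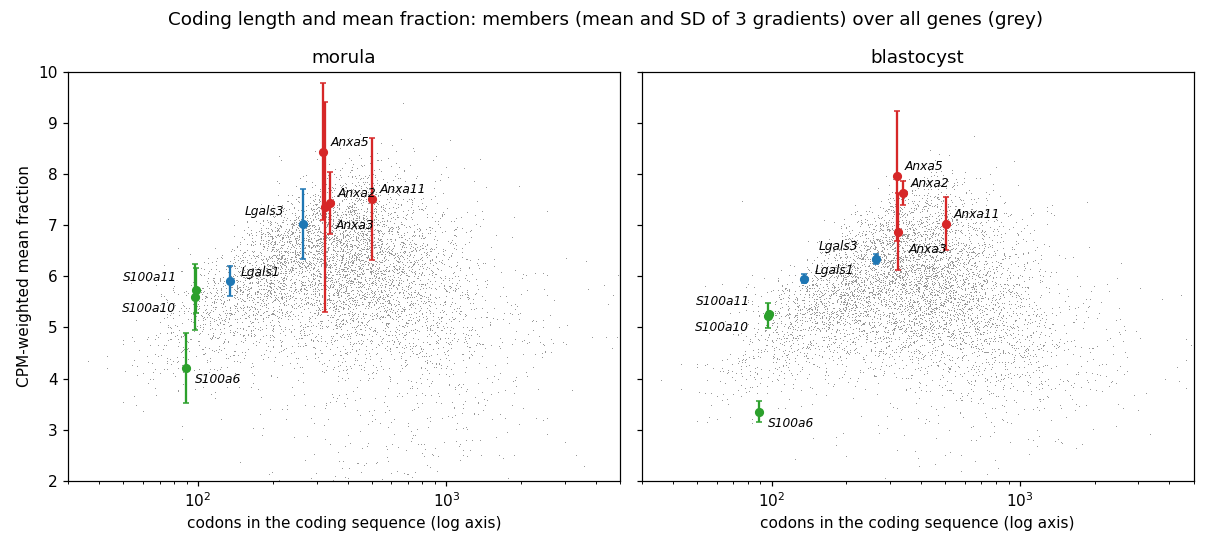
CPM-weighted mean fraction (vertical) against the number of codons (horizontal, logarithmic) in morulae and blastocysts; coloured points are the 9 genes with mean and SD of 3 gradients, grey points all genes at 10 CPM or more. In blastocysts S100a6 lies at 3.35, below most short genes, and Anxa2 at 7.64, above most genes of its length.

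Set among all those genes, Anxa5 was at percentile 99.7 of position in blastocysts, Anxa2 at 98.7 and Anxa11 at 92.7. Lgals3 was at percentile 76.1, Lgals1 at 62.3, S100a11 at 35.4 and S100a10 at 34.1. In morulae Anxa2 was at percentile 94.8, Lgals1 at 49.2 and S100a6 at 8.08. S100a10 and S100a11 were a little above the median of genes under 150 codons, whose quartiles were 4.39 and 5.38 in blastocysts. Of the same length class, Lgals1 at 5.95 was above the upper quartile and S100a6 at 3.35 below the lower. The means of Anxa2, Anxa3 and Anxa5 were above 6.65, the upper quartile of genes with 300 to 450 codons in blastocysts.

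The level in the gradients, taken as the mean over the 10 fractions, followed the transcriptome for some genes and not for others. Lgals1 was 61.1, 155 and 123 CPM in the 3 morula gradients, against 1.78 to 3.19 CPM in the 4 morula transcriptome pools, a ratio of the means of 42.6. In blastocysts the ratio was 1.27. The summed level of the 8 trophectoderm markers was higher in the morula fractions too. Its median was 919 CPM (358 to 4093), against 303 to 359 CPM in the morula transcriptomes. The sum of 6 inner cell mass markers was also higher in the fractions, with a median of 748 CPM (89.1 to 2353) against 206 to 307. Most of that sum was Pou5f1, on average 696 CPM in the morula fractions against 32.5 CPM in the transcriptome. Pou5f1 was higher in the fractions at every other stage too. Nanog was also higher in morula fractions (162 against 47.5 CPM). Klf2 (80.9 against 145 CPM) and Esrrb (8.40 against 32.3 CPM) were lower, and Fgf4 and Sox2 were low in both. The sum of 4 primitive endoderm markers was lower in the fractions, at 35.5 CPM (0.156 to 142) against 158 to 206. The part of embryo age, or of any other difference between these collections, was not tested. Lgals3, Anxa5, Anxa11, S100a10 and S100a6 in morulae had ratios between 0.920 and 1.87.

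Anxa3 went the other way. Its transcriptome level was 6.40 to 23.1 CPM in 4-cell and 9.58 to 21.4 CPM in 8-cell embryos, but it was at 0 in 29 of 30 fraction libraries of the 4-cell embryo and in 27 of 30 of the 8-cell embryo. In the same 4-cell fractions S100a11 was at 0 in 8 of 30. By the blastocyst Anxa3 was 5.93, 4.87 and 12.3 CPM over the fractions, a ratio to the transcriptome of 0.371. S100a11 also had less in the fractions than in the transcriptome at each stage from the 2-cell embryo on, with ratios of 0.0231 in 2-cell, 0.121 in 4-cell, 0.200 in 8-cell, 0.440 in morula and 0.509 in blastocyst embryos. CPM are shares of each library, so these ratios compare shares and not amounts.

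**Figure D5:**
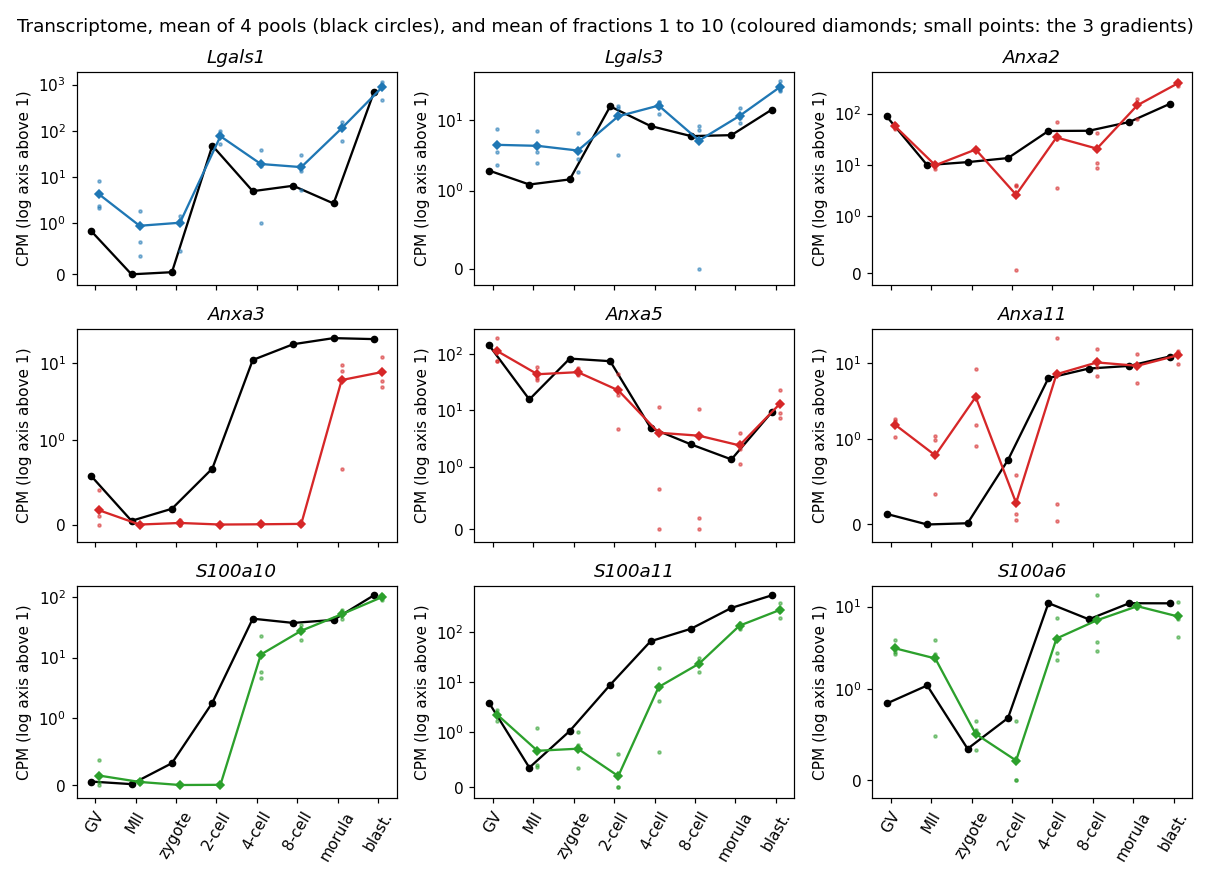
Mean level in CPM (vertical, logarithmic above 1 CPM) at the 8 stages (horizontal) in the transcriptome (black circles, 4 pools) and over the 10 gradient fractions (diamonds, mean of 3 gradients shown as small points). Lgals1 in morulae is at 2.66 CPM in the transcriptome and at 113 CPM in the fractions. Anxa3 is near 0 in the fractions up to and including the 8-cell stage.

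Other genes of the families and of their known partners were taken from lists, and tested from morula to blastocyst in the transcriptome, where 18.8% of all genes were called higher and 7.97% lower. The lists were chosen with earlier results of these data known, so the counts and p-values are a description. Of 29 other galectin, annexin and S100 genes listed, 14 were analysed. Of these, 6 rose and 2 fell, with a median change of 0.60 against 0.16 over all genes. Nothing is read from these counts. Anxa6 rose from 0.464 ± 0.136 to 36.4 ± 5.69 CPM (SD, n = 4; limma log2 change 4.67, adjusted p = 6.3e-19), and Lgals4, an epithelial galectin with paired sugar-binding domains, from 2.53 ± 2.41 to 56.1 ± 4.76 CPM (4.24, adjusted p = 2.3e-11). Lgals7 rose by 2.34, and S100a16, which was listed at 0 in all morula pools, by 1.43. S100a3 fell by 2.22 and Lgals8 fell by 1.26, the latter from 244 ± 41.6 to 101 ± 13.5 CPM (limma, adjusted p = 6.0e-07).

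Of 21 partner genes listed, 17 were analysed. Of these, 7 rose and 1 fell, with a median change of 0.78. This list too was chosen with earlier results known, so nothing is read from its counts. Ezr, which encodes the membrane-to-actin linker ezrin of microvilli, rose by 2.91 ± 0.33 (SE; limma, adjusted p = 3.6e-09). Ahnak, a giant scaffold that binds the annexin A2 and S100A10 complex, rose from 22.7 ± 5.50 to 161 ± 17.1 CPM (limma, adjusted p = 1.1e-13). Capns1, the small regulatory subunit of calpain proteases, rose by 2.62 and Chmp4b, an ESCRT-III subunit of membrane repair, by 1.38. Sugt1, a co-chaperone bound by S100A6, fell by 1.66 (limma, adjusted p = 6.4e-12). The genes of the plasminogen activator system, Plau, Plat and Plaur, were not called, with changes of 0.78, -0.77 and 0.18.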

How the data were processed

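The authors deposited 1 table of CPM per gene symbol for 272 libraries (32 transcriptomes, 240 fractions). Per the submitters' processing notes, Trim Galore 0.6.7, FastQC, HISAT2 2.2.1, featureCounts 2.0.1, edgeR and the build GRCm39 were used; their settings are not given in the sources used here, nor is the use of strand. The libraries were made with a Smart-seq kit per the labels, with no molecular identifiers stated. Of 15854 symbols, 1 was kept of each group with identical values, leaving 15771; 9 of the deposited columns sum to so much over 1 M that they were recorded as signal, and after this step none of the 272 did. Each value was a whole number of reads within 0.05, so reads could be recovered.

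Means of fractions 6 to 10 and 1 to 5 per gradient, and the transcriptomes, were compared on log2(CPM + 1) with limma 3.58.1 (trend, all stages in 1 fit) in R 4.3.3, for genes at 1 CPM or more in at least 3 fraction means or 4 transcriptomes, with Benjamini-Hochberg adjustment over all genes tested. Alternatives were edgeR 4.0.16 on recovered reads, a pseudocount of 0.1, no filter, quantile normalization, other fractions, a fit of only the groups compared, a block and each replicate left out. Same-lettered fractions of a stage were taken as 1 gradient, so heavy and light come from 1 lysate and are paired; their deviations correlated at 0.0078 to 0.253 over 24 pairs, over 0.1 in 11. The 4 transcriptome columns of the 2-cell stage have letters other than their labels and were used by group only. Pools are replicates, and nothing says how embryos were shared between them, so p-values measure the spread between these pools.

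The 9 genes and the lists were chosen with earlier results of these data known. A test from zygote to 2-cell embryo was planned but is given as values only, since the genes were chosen on levels from the 2-cell stage on. Named genes were all 9, of the other lists those called from morula to blastocyst (at most 4 in each direction), and the 5 most like Lgals1. Reads of Lgals1 and S100a11 could be shared with pseudogenes, and those of Anxa2, Anxa3 and Anxa11 with overlapping genes. Coding lengths came from GENCODE M21. The tests were run on simulated counts first.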

Additional observations from a re-analysis of the deposited data

Results flagged for a closer look

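In 8 of the 72 groups of 4 transcriptome pools, the highest pool stood far from the others by Dixon's criterion, which chance meets in about 1 group in 20. With more than a few reads these were Anxa2 in a 4-cell pool at 70.0 CPM and Anxa3 in a 4-cell pool at 23.1 CPM, S100a6 in an 8-cell pool at 11.8 CPM, and Lgals1 in a GV pool at 1.38 CPM (19 reads). The other 4 rest on 1 to 4 reads: Lgals1 in a zygote pool at 0.167 CPM, Anxa3 in an MII pool at 0.175 CPM, Anxa11 in a zygote pool at 0.0584 CPM and S100a10 in an MII pool at 0.0528 CPM.

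Differences between stages in the position along the gradient were called by limma for S100a6 from 2-cell to 4-cell embryos (3.38 on the log2 scale) and from 4-cell to 8-cell embryos (-3.79), and for Lgals3 from 2-cell to 4-cell embryos (-5.46). They rest on 4-cell gradients in which S100a6 was at 0 in 25 and Lgals3 in 22 of 30 libraries.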

How the results depend on the processing

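The 4 calls of heavy or light position depended on the processing. The share of all genes called is given above for only a few of the alternatives, so nothing is read from the size of the counts below. The number of members called heavy was 3; it was 5 with quantile normalization, 1 when each stage was fitted alone, 1 with fraction 1 left out and 1 with edgeR on recovered reads. The number called light was 1. It was 0 with quantile normalization, 2 for fractions 1 to 3 against 8 to 10 and 4 with edgeR. These counts do not say which calls were kept. Each stage fitted alone kept 0 of the 4 and called 2 others: Anxa2 heavy in blastocysts and Lgals3 light in MII oocytes. The mean of log2 values kept 2 and called 2 others. edgeR kept 1, S100a6 in 4-cell embryos, and its 4 light calls were all others. Over the 5 stages other than 2-cell to 8-cell, 1 heavy and 0 light calls became 5 and 1 with those 3 stages left out of the fit, which was chosen after seeing the data. Of the 3 called shifts, 1 remained when only both stages were fitted (S100a6, 2-cell to 4-cell). The mean of log2 values kept 0 of the 3 and called 1 other (S100a10, 8-cell to morula), and edgeR kept that of S100a6 from 2-cell to 4-cell and called 4 others, 5 in all. Leaving out 1 replicate at a time gave 1 to 3 heavy, 0 to 1 light and 1 to 3 shifts. The replicate block kept these counts at 3, 1 and 3; among the results named it ended the call of S100a10 in 8-cell embryos and made that of Lgals3 in 2-cell embryos.

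In the transcriptome from GV to MII oocyte and MII oocyte to zygote, 1 member called higher became 3 and 3 called lower became 6 with a pseudocount of 0.1. With edgeR they were 3 and 7. The share of all genes called under these settings is not given, so nothing is read from the change in counts. Partner genes called lower were 1, and 2 with the pseudocount of 0.1 and 3 with edgeR. Without 1 pool at a time the other counts were 1 and 3 for the members, 5 to 6 and 2 for the other family genes and 6 to 7 and 1 for the partners. Transcriptome letters did not pair the pools (correlations of deviations from -0.178 to 0.169, over 0.1 in 2 of 20), and the block changed none of these counts (1 higher and 3 lower for the members). The cause of these differences was not tested. No named value reversed its sign in a called result.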

Other observations

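Other galectins also differed between the morula gradients and the morula transcriptomes. Lgals4 was 31.5, 85.2 and 81.7 CPM over the fractions of the 3 gradients, against 2.53 ± 2.41 CPM in the transcriptome (SD, n = 4), and Lgals7 was 4.64, 18.0 and 21.2 CPM against 2.06 ± 1.35. Lgals8, a galectin with paired sugar-binding domains that recognises damaged endosomes, was lower in the gradients, at 90.9, 49.3 and 52.7 CPM against 244 ± 41.6. Anxa6 was 4.57, 7.45 and 4.41 CPM over the morula fractions against 0.464 ± 0.136 in the transcriptome, and 15.1, 14.9 and 21.5 CPM in blastocyst fractions against 36.4 ± 5.69.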
